A study of Homo sapiens with 6 samples.

Results

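Chromosome 18 genes were followed through an RNA sequencing comparison of DU145, a long-established cell line from human prostate cancer. The members are 59 named genes of this chromosome, taken by symbol from the table of read counts and ordered along the short arm and then the long arm. Of these, 58 had a row in the table, and EPB41L3, a membrane skeleton protein, was not analysed here. All 58 passed the filter on low counts and were tested, among 19433 genes tested of 33835 gene rows. The names were chosen by position on the chromosome after the fold changes of this same comparison were known, so the members' levels and fold changes are given as a description, without p-values.

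The shE6AP group had 3 libraries of cells transduced with a short hairpin against E6AP, the ubiquitin ligase encoded by UBE3A. The wobble group had 3 libraries of cells transduced with a wobble control, whose sequence the labels do not give. Both groups received doxycycline at 0.2 µg/ml for 2.5 days. The labels do not say whether a group was a pool or 1 clone of transduced cells, or whether its libraries came from separate cultures, so the spread between libraries may be technical.

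Chromosome 18 is among the gene-poor human chromosomes. It carries SMAD2 and SMAD4, which relay TGF-beta signals from the receptors to the nucleus, and SMAD4 is known as a tumour suppressor of epithelial cancers. Its genes share no pathway: the members encode kinases and phosphatases, chromatin regulators, centrosome and spindle proteins, lipid and membrane proteins and ubiquitin ligases.

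Reads on genes ran from 21558506 to 30488217 per library, and levels are CPM, read counts divided by the TMM-scaled library size, as mean ± SD over 3 libraries. Each log2 fold change sets shE6AP over wobble and carries a standard error (SE), and a gene is said to have risen or fallen where its Benjamini-Hochberg adjusted p was under 0.05 in edgeR's quasi-likelihood test over all genes. UBE3A, the target, averaged 14.6 ± 0.376 CPM in shE6AP and 55.8 ± 1.97 CPM in wobble, a log2 fold change of -1.94 (SE 0.0512, adjusted p = 2.52e-31 in edgeR's test). An exact two-sided permutation test of its log2 CPM gave p = 0.1, the smallest that 3 libraries against 3 allow. Epithelial markers (KRT8, KRT18, KRT19, CDH1 and EPCAM) summed to between 1050 and 1090 CPM in shE6AP and between 918 and 948 CPM in wobble. Blood markers (3 of 4 listed had a row) summed to between 3.04 and 3.47 CPM in shE6AP and between 2.84 and 3.5 CPM in wobble. Fibroblast and endothelial markers (4 of 5) summed to between 16.9 and 18.5 CPM in shE6AP and between 12 and 14.7 CPM in wobble, most of it COL1A1. The part of these markers in the values below was not tested.

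Most members stood higher in shE6AP. Of 58, 41 rose, 10 fell and 7 did not pass, where 28.6% of all tested genes rose and 30.4% fell. Every member averaged at least 5 CPM over the libraries, and of all genes at that level 34.5% rose and 38.1% fell. Nothing is read from this difference, because the list was drawn up with the comparison in view. The median member had a log2 fold change of 0.317, or 1.25-fold, against 0.00837 over all genes tested. The changes were small: quartiles were 0.0811 and 0.48, and ATP8B1 was the 1 member that at least doubled. When the test asked for more than 1.2-fold (edgeR's glmTreat), 26 members were called higher and 7 lower. Of all 19433 genes tested, 2553 were then called higher and 3084 lower. In bulk RNA, a change in the level per cell and a change in the share of cells that express a gene cannot be told apart.

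The members' mean was higher in every shE6AP library than in every wobble library, which restates fold changes known when the list was drawn up. Relative to each gene's mean over the 6 libraries, the members averaged 0.106, 0.119 and 0.126 on the log2 scale in shE6AP, against -0.133, -0.13 and -0.0881 in wobble. Their summed share of reads on genes was 0.593 ± 0.00603% in shE6AP and 0.506 ± 0.00779% in wobble (SD over 3 libraries). For 43 members every shE6AP library was above every wobble library, for 10 every one was below, and for 5 the groups overlapped. Over all genes tested, 30.6% were above in this way and 31.9% below. Of the 12384 genes averaging at least 5 CPM, 4421 were above and 4831 below. Separation of the mean relative levels was not particular to the members. The 45 tested paralogues, related genes on other chromosomes described below, averaged -0.0221, -0.0155 and -0.00388 in shE6AP, against 0.0073, 0.0128 and 0.0213 in wobble.

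**Figure D1:**
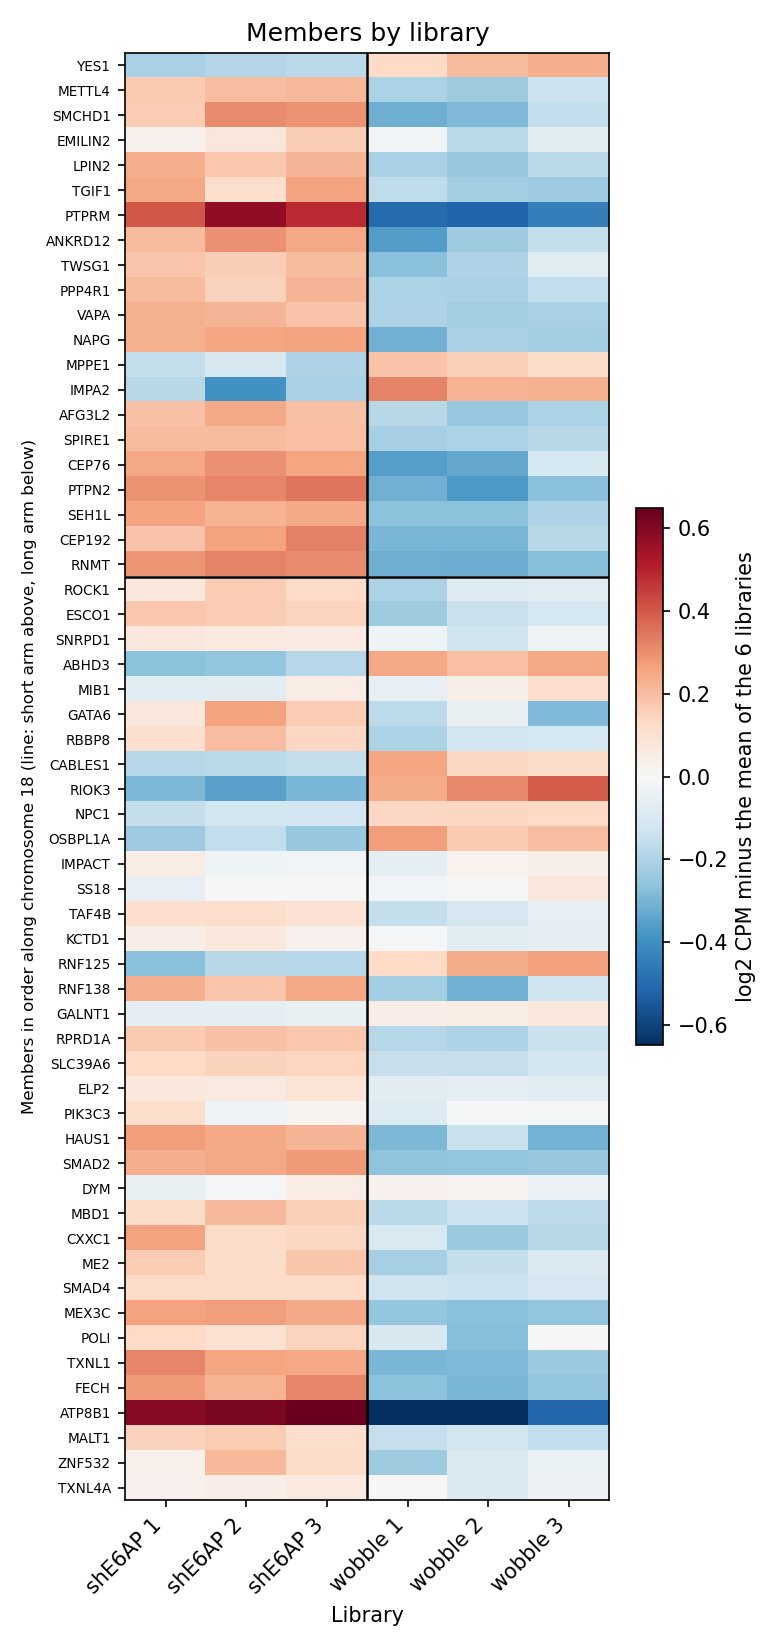
Log2 CPM of each of 58 members minus its mean over the 6 libraries (colour), with members in rows by position along the chromosome and libraries in columns, shE6AP left of the vertical line and wobble right of it. Short-arm members, above the horizontal line, are red on the left in 18 of 21 rows, and the long-arm rows hold 7 fallen members and 7 that did not pass.

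Both arms held more members that rose than fell, where 34.5% of all genes averaging at least 5 CPM rose and 38.1% fell. Of the 21 short-arm members with a row, 18 rose and 3 fell, with a median log2 fold change of 0.422 (quartiles 0.385 and 0.506). Of the 37 long-arm members, 23 rose, 7 fell and 7 did not pass, with a median of 0.243 (quartiles -0.0067 and 0.327). The 3 short-arm members that fell were YES1 near the telomere and the pair MPPE1 and IMPA2, which follow each other in the list.

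The members' medians also differed between runs along the chromosome, and these differences were not tested. In runs of 10 consecutive members, the median log2 fold change was 0.403 from YES1 to PPP4R1 and 0.458 from VAPA to CEP192. From RNMT, the last short-arm member, to RIOK3 it was 0.182. It was -0.0165 from NPC1 to RPRD1A, where 3 members rose, 4 fell and 3 did not pass. Beyond that it was 0.295 from SLC39A6 to SMAD4, and 0.403 in the last 8 members, from MEX3C to TXNL4A, of which 7 rose and none fell. Of the 7 long-arm members that fell, ABHD3, CABLES1, RIOK3, NPC1, OSBPL1A, RNF125 and GALNT1, all lie between ROCK1 and RPRD1A.

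The genes of chromosome 18 that are not members mostly stood higher too, and more so on the short arm. Reference tables placed 224 further rows there, of which 157 were tested: 94 rose, 15 fell and 48 did not pass, with a median log2 fold change of 0.291. Their median was 0.491 on the short arm (42 genes) and 0.243 on the long arm (115 genes). Among the other genes that start within the span of each run of members, the medians were 0.52 (18 genes), 0.101 (10), 0.373 (8), 0.0691 (24), 0.317 (33) and 0.316 (50). The span from NPC1 to RPRD1A thus had the lowest median in both sets, and the span from VAPA to CEP192, the highest for members, was the second lowest for the other genes. That contrast is a description. Of the other genes there, APCDD1, FAM38B, AP002414.1, ANKRD62 and AP005482.1 averaged only 2.63, 0.995, 0.7, 0.871 and 0.988 CPM. Genes of low level were kept in the other spans too, such as MYOM1 (0.928 CPM) between YES1 and PPP4R1. The part of low counts in the contrast was not tested. The remaining other genes of that span, CHMP1B, GNAL, TUBB6, SLMO1 and PSMG2, had log2 fold changes of 0.291, 0.0209, 0.69, 0.181 and 0.601. Among genes with a mean of at least 5 CPM, a limit chosen after values were seen for this count, 77 of 110 rose and 11 fell, against 34.5% and 38.1% of all genes at that level. With the members included, chromosome 18 had a summed share of 1.45 ± 0.0156% in shE6AP and 1.17 ± 0.0126% in wobble (SD over 3 libraries).

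**Figure D2:**
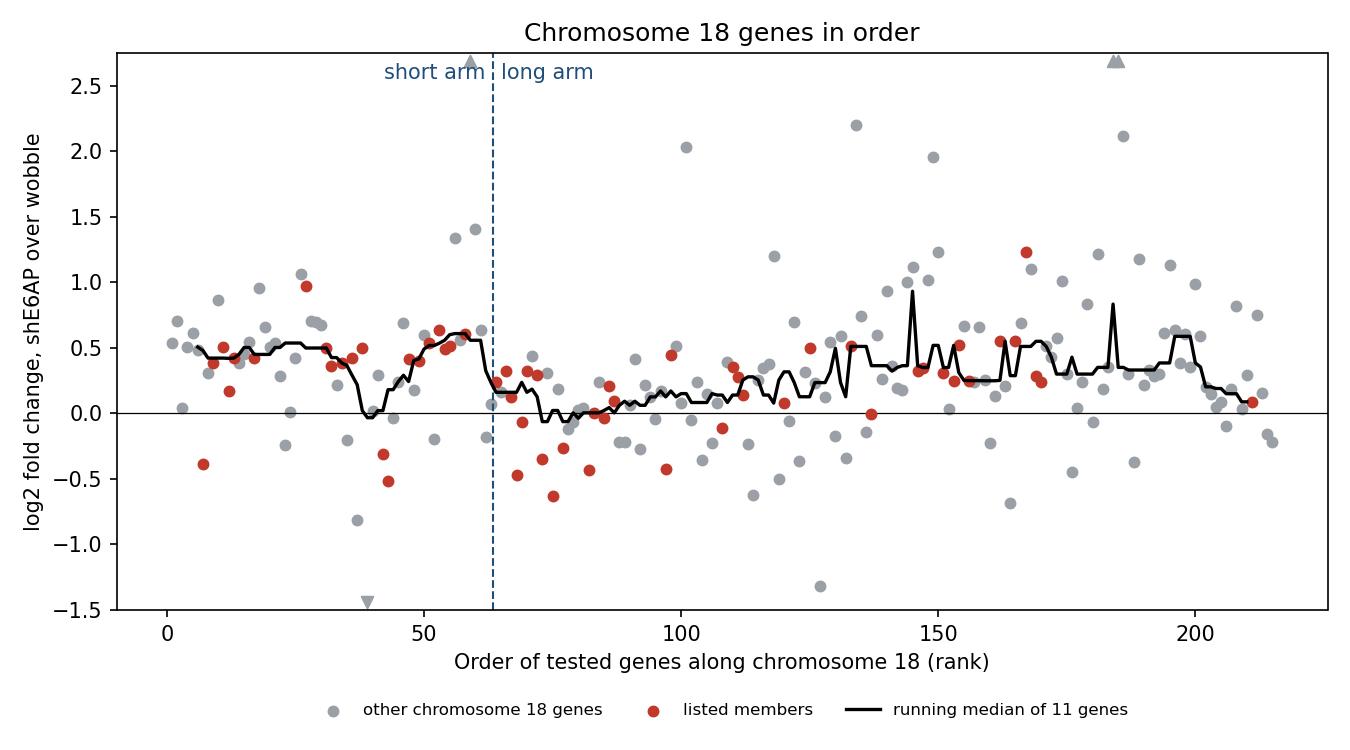
Log2 fold change of shE6AP over wobble (vertical axis) for 215 tested chromosome 18 genes in order of position (horizontal axis, rank), members in red, other genes in grey, with the running median of 11 genes as a line and the arms divided by a dashed line. Triangles mark genes beyond the axis (FAM38B, MC5R, SERPINB5 and SERPINB7), and the line lies near 0 in 2 places, on the short arm from NAPG to MPPE1 and on the long arm around NPC1 and SS18.

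Among these other genes, by a minimum of 5 CPM, the largest rises were in DTNA, a dystrophin-associated protein, ZNF519, a zinc finger protein, NEDD4L, a HECT ubiquitin ligase, LAMA1, a laminin chain, and SKA1, a kinetochore protein. DTNA had 25.7, 25.1 and 26.4 CPM in shE6AP, against 6.70, 5.81 and 6.42 CPM in wobble, a log2 fold change of 2.03 (SE 0.0704). LAMA1 had 271, 284 and 291 CPM in shE6AP, against 135, 136 and 135 CPM in wobble. The log2 fold changes of ZNF519, NEDD4L and SKA1 were 1.41, 1.10 and 1.02. The largest falls were smaller: FHOD3, a formin, stood at 80.9 ± 2.21 CPM in shE6AP and 124 ± 1.24 CPM in wobble (log2 fold change -0.62), and PIGN, PSTPIP2, ZSCAN30 and IER3IP1 had values of -0.45, -0.36, -0.36 and -0.34.

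Beside the other chromosomes, chromosome 18 had the highest median. Of the 19433 tested genes, 15952 (82.1%) could be placed on chromosomes 1 to 22 or X by symbol. The 215 on chromosome 18, members included, had a median log2 fold change of 0.300 and 62.8% of them rose, while the other 22 medians ran from -0.222 on chromosome 3 to 0.165 on chromosome 4 and their shares of risen genes from 18.1% to 48.7%. No test was made over chromosomes. The members among the 215 were named with this comparison in view, and the chromosome may have been chosen in the same way. Its rank is therefore given as a description.

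**Figure D3:**
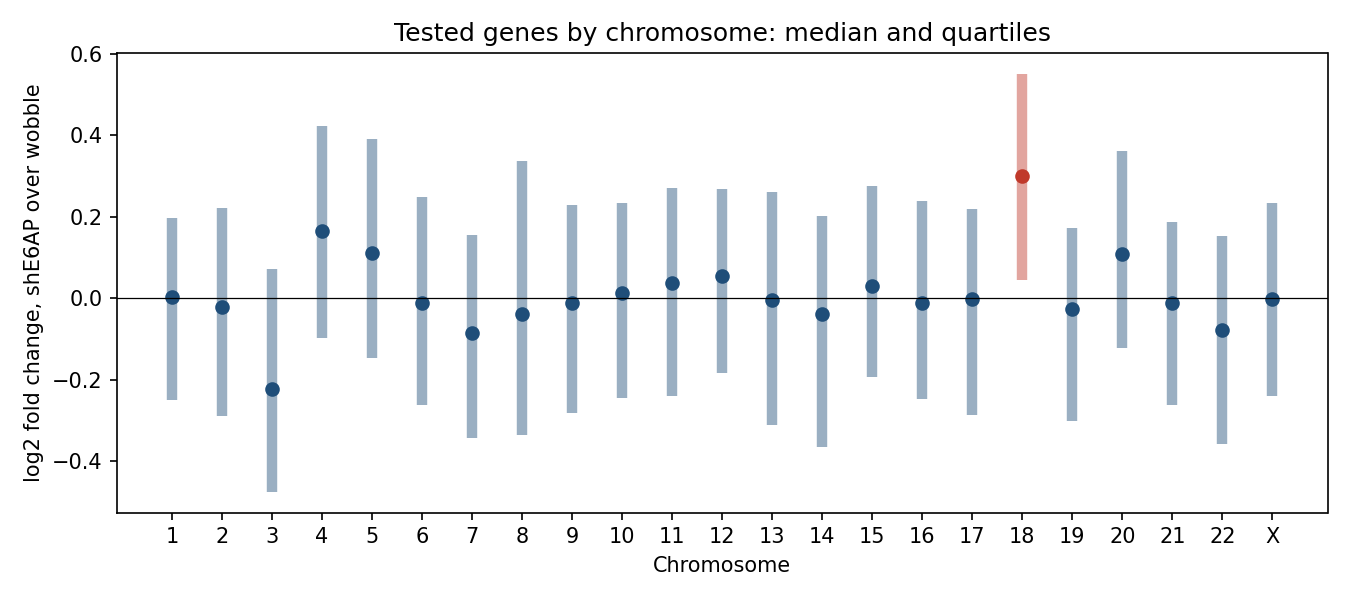
Median log2 fold change of shE6AP over wobble (point) with the quartiles (bar) of the tested genes of each chromosome. Chromosome 18 (red, median 0.300) lies above the other 22, of which chromosome 4 is the highest at 0.165 and chromosome 3 the lowest at -0.222.

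The upstream sequence of 4 members is shown because these had the largest rises and falls among the 47 members whose promoter entry could be used, PTPRM and TXNL1 higher and RIOK3 and ABHD3 lower. Each is the 250 bases before the annotated start, 5′ to 3′ on the gene's strand, from RefSeq on GRCh38.p14, a build other than the hg19 the authors aligned to. Capitals mark the GC box GGGCGG, the CCAAT box CCAAT and the TATA box TATAAA, each searched on both strands, and neighbouring GC boxes can share bases.
PTPRM, chr18:7567066-7567315, + strand: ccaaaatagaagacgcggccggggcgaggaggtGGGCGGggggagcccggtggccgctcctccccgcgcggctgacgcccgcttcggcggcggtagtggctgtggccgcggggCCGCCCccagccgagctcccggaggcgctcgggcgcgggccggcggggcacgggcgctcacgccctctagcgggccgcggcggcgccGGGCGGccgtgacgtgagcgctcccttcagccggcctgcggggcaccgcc
TXNL1, chr18:56638593-56638842, - strand: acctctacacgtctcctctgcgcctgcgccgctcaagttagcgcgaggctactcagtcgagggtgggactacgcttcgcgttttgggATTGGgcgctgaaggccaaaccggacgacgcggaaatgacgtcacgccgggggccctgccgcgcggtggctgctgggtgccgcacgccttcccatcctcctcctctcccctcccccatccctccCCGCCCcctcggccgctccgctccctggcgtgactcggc
RIOK3, chr18:23453037-23453286, + strand: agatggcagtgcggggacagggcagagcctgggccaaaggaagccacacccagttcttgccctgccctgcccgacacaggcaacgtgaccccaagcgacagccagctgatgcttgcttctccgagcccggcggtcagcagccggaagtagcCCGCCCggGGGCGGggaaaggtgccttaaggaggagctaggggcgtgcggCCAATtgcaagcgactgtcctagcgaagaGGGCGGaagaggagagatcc
ABHD3, chr18:21704775-21705024, - strand: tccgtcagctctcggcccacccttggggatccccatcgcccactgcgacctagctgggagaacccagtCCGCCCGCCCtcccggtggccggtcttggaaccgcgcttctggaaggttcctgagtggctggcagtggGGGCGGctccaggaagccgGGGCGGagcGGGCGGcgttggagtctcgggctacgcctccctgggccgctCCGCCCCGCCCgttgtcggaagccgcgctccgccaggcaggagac

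These windows did not sort by direction of change. The 2 risen genes held 3 GC boxes (PTPRM) and 1 GC box with 1 CCAAT box (TXNL1), and the 2 fallen genes 3 GC boxes with 1 CCAAT box (RIOK3) and 7 GC boxes (ABHD3). Their GC content was 81.6%, 69.6%, 65.6% and 72.8% in that order. Over the 47 members, 37 windows (78.7%) held a GC box, 17 (36.2%) a CCAAT box and 2 (4.26%) a TATA box, beside 42.3%, 33.2% and 11.2% of 25740 promoters of the same length and choice. Members' windows had a median GC content of 69.2% and 25 CpG pairs, beside 57.6% and 11 over all promoters. All 58 members passed a filter on low counts, which the promoters of all genes did not, so the sets differ in more than chromosome. No usable entry was at hand for IMPA2, RNMT, ESCO1, SNRPD1, DYM and ATP8B1, and for PPP4R1, SPIRE1, PTPN2, MIB1 and RBBP8 the entry lay more than 1000 bases from the gene's annotated start.

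Genes of signalling proteins, kinases and phosphatases made up 12 members, of which 9 rose and 3 fell (median log2 fold change 0.326). Of all genes averaging at least 5 CPM, 34.5% rose and 38.1% fell. The counts by role, here and below, come from a list drawn up with the comparison in view, in which most members rose. Nothing about function is read from them. PTPRM, a receptor-type tyrosine phosphatase that holds cells together through its extracellular part, had 86.0, 97.0 and 91.0 CPM in shE6AP, against 45.9, 45.4 and 47.8 CPM in wobble. Every shE6AP library was far above the wobble libraries, and the log2 fold change was 0.98 (SE 0.042). PTPN2, a phosphatase that restrains JAK and STAT signalling, had 71.3, 72.4 and 74.0 CPM in shE6AP, against 46.8, 44.9 and 48.1 CPM in wobble (log2 fold change 0.64, SE 0.0402).

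The SMAD genes among the members rose together with genes of 2 extracellular or nuclear regulators of the TGF-beta pathway. SMAD2, which the activated receptor phosphorylates, had 207, 208 and 212 CPM in shE6AP, against 146, 146 and 148 CPM in wobble (log2 fold change 0.51, SE 0.0327). SMAD4, its common partner, averaged 66.2 ± 0.0886 CPM in shE6AP and 55.7 ± 0.627 CPM in wobble (log2 fold change 0.25), and an annotated gene, AC091551.1, overlaps it. TGIF1, a homeobox repressor that binds SMAD proteins, and TWSG1, a secreted protein that binds bone morphogenetic proteins, had log2 fold changes of 0.42 and 0.37.

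Of 21 listed receptors, other SMAD genes, repressors and target genes on other chromosomes, 8 rose (38.1%), 11 fell (52.4%) and 2 did not pass, with a median of -0.125. Over all genes of at least 5 CPM, 34.5% rose and 38.1% fell. The leading 2 were ID3, a target of bone morphogenetic protein signalling, at 53.2 ± 2.80 CPM in shE6AP and 145 ± 6.13 CPM in wobble, and SKIL, a SMAD repressor that the pathway induces, at 19.5 ± 1.02 CPM in shE6AP and 53.3 ± 3.18 CPM in wobble. Their log2 fold changes were -1.45 and -1.46. SMAD7, an inhibitory SMAD on chromosome 18 that is not a member, did not pass (log2 fold change -0.14), and it was named after its value was seen.

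RIOK3, an atypical kinase, was the member that fell most. It had 60.7, 58.3 and 60.5 CPM in shE6AP, against 87.9, 92.3 and 97.7 CPM in wobble, with no overlap (log2 fold change -0.63, SE 0.0402). YES1, a kinase of the SRC family, averaged 154 ± 2.04 CPM in shE6AP and 201 ± 7.46 CPM in wobble (log2 fold change -0.38), and CABLES1, an adaptor of cyclin-dependent kinases, had a log2 fold change of -0.34. The other risen members of this role were PPP4R1, a regulatory subunit of protein phosphatase 4, ROCK1, a kinase that acts on the actin cytoskeleton, and MALT1, a protease of NF-kB signalling, with log2 fold changes of 0.38, 0.24 and 0.29.

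**Figure D4:**
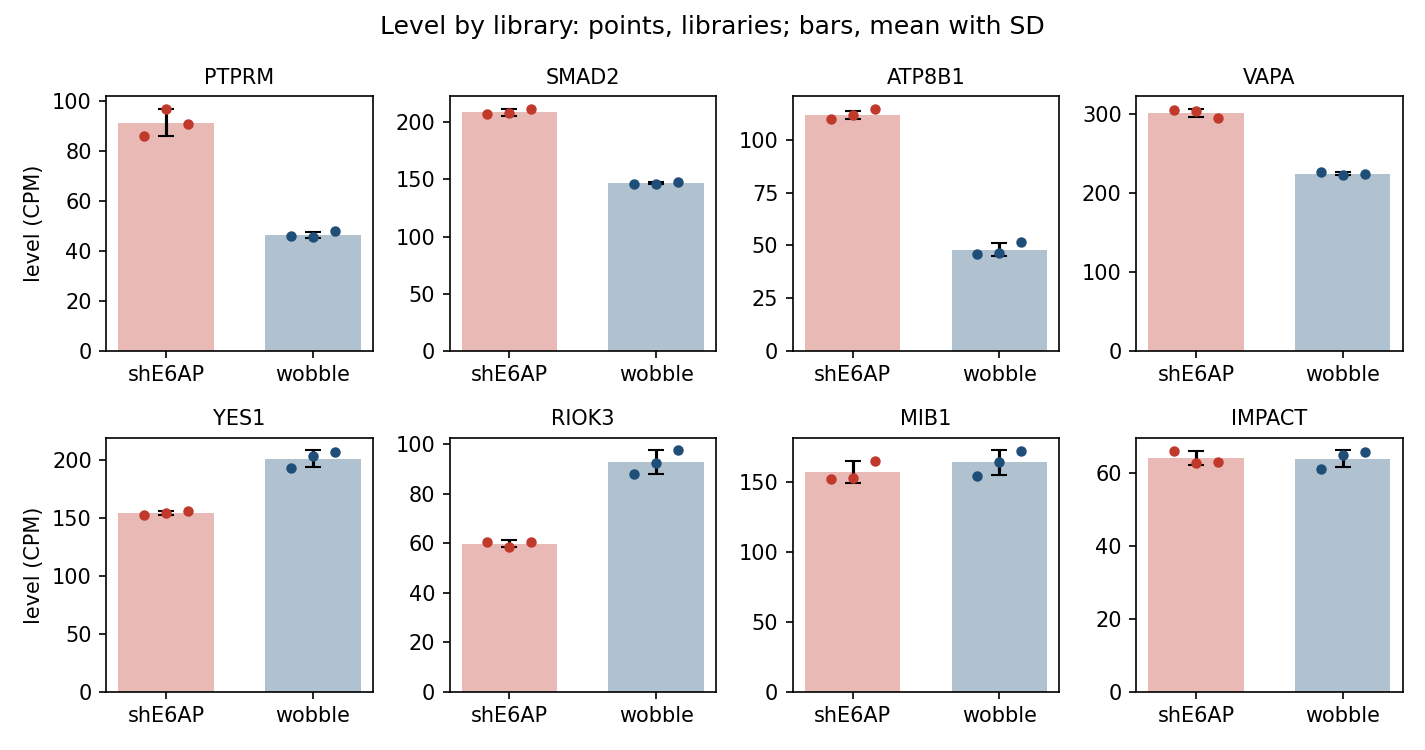
Level in CPM (vertical axis, from 0) of 8 members in shE6AP and wobble; points are libraries, bars the mean of 3 and error bars the SD. PTPRM, SMAD2, ATP8B1 and VAPA stand higher in every shE6AP library, YES1 and RIOK3 lower, and the libraries of MIB1 and IMPACT overlap.

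Chromatin and transcription regulators made up 12 members, of which 10 rose, none fell and 2 did not pass (median 0.325). SMCHD1, a structural maintenance protein of silenced chromatin, had 191, 210 and 208 CPM in shE6AP, against 137, 140 and 153 CPM in wobble (log2 fold change 0.51, SE 0.0383). ANKRD12, a nuclear protein that binds transcriptional coactivators, had 118, 125 and 122 CPM in shE6AP, against 79.3, 87.1 and 91.8 CPM in wobble. RPRD1A, which binds the tail of RNA polymerase II, had 334, 339 and 335 CPM in shE6AP, against 261, 257 and 269 CPM in wobble. METTL4, an adenine methyltransferase, had 57.4, 58.6 and 59 CPM in shE6AP, against 44.3, 43.5 and 46.3 CPM in wobble. None of these groups overlapped, and the last 3 had log2 fold changes of 0.50, 0.36 and 0.38.

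Smaller rises came from CXXC1 and MBD1, which read unmethylated and methylated CpG, at 0.35 and 0.32, and from GATA6, a transcription factor of endoderm, at 0.33. GATA6 had the fewest reads of any member, at 6.45 ± 0.427 CPM in shE6AP and 5.10 ± 0.425 CPM in wobble, and an antisense gene overlaps it. ZNF532, TAF4B, a subunit of a TFIID variant, and ELP2, a scaffold of Elongator, had log2 fold changes of 0.24, 0.21 and 0.14. SS18, a subunit of BAF chromatin remodelling complexes, did not pass and averaged 132 ± 2.73 CPM in shE6AP and 136 ± 4.40 CPM in wobble. KCTD1, a transcriptional repressor, did not pass either, with 22.8, 23.2 and 22.6 CPM in shE6AP, against 22, 21 and 21.3 CPM in wobble, though its groups did not overlap.

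Genes of centrosome, actin and matrix proteins rose in 5 of the 5 members with a row (median 0.497). This stands beside 34.5% of all genes averaging at least 5 CPM. CEP192, which recruits the kinases of centrosome maturation, had 105, 110 and 115 CPM in shE6AP, against 74.6, 74.6 and 81 CPM in wobble (log2 fold change 0.52, SE 0.0396). CEP76, which limits centriole duplication, had 24.2, 24.9 and 24.2 CPM in shE6AP, against 15.8, 16.1 and 18.7 CPM in wobble. HAUS1, an augmin subunit that branches spindle microtubules, had 26.4, 25.9 and 25.4 CPM in shE6AP, against 17.8, 19.7 and 17.6 CPM in wobble. The log2 fold changes of CEP76 and HAUS1 were 0.54 and 0.50, and neither showed overlap.

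SPIRE1, an actin nucleator, had 100, 100 and 99.5 CPM in shE6AP, against 74.8, 75.3 and 76.6 CPM in wobble, a log2 fold change of 0.40. CEP76, SPIRE1 and the proteasome assembly gene PSMG2 overlap on the chromosome, and reads from overlapping genes could not be separated. EMILIN2, an extracellular glycoprotein, rose by the least here (log2 fold change 0.17), and its call was lost without shE6AP library 3, at 0.14, and without wobble library 2, at 0.13.

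Genes of DNA repair and sister chromatid cohesion rose in 3 of 3 members (median 0.296), a small list. Of all genes averaging at least 5 CPM, 34.5% rose. ESCO1, which acetylates cohesin, had 69.8, 69.5 and 68.5 CPM in shE6AP, against 52.7, 56.1 and 57.2 CPM in wobble (log2 fold change 0.33, SE 0.0399). RBBP8, which starts resection of broken DNA ends, had 126, 134 and 128 CPM in shE6AP, against 101, 107 and 108 CPM in wobble (log2 fold change 0.30). POLI, a polymerase that copies past damaged bases, had 13.8, 13.5 and 13.9 CPM in shE6AP, against 11.7, 10.4 and 12.7 CPM in wobble. Its log2 fold change was 0.25, and the call was lost without wobble library 2, at 0.17.

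Genes of RNA processing, the nuclear pore and translation gave 3 rises and 2 that did not pass (median 0.127). RNMT, which methylates the cap of messenger RNA, had 113, 116 and 115 CPM in shE6AP, against 74.4, 74.1 and 76.3 CPM in wobble (log2 fold change 0.61, SE 0.0358). SEH1L, a subunit of the outer ring of the nuclear pore, had 125, 122 and 124 CPM in shE6AP, against 86.7, 86.7 and 90.6 CPM in wobble (log2 fold change 0.49). The groups were well apart for both. SNRPD1, a spliceosomal Sm protein, had 74.1, 73.6 and 72.9 CPM in shE6AP, against 69.0, 64.3 and 68.9 CPM in wobble, a log2 fold change of 0.13 whose call was lost without wobble library 2, at 0.09.

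TXNL4A, a spliceosomal protein, and IMPACT, an inhibitor of the stress kinase that senses uncharged transfer RNA, did not pass. TXNL4A had 33.2, 33.5 and 33.9 CPM in shE6AP, against 32.5, 30.5 and 31.7 CPM in wobble, with no overlap between the groups. On the chromosome TXNL4A overlaps HSBP1L1, and reads from overlapping genes could not be separated. IMPACT averaged 64.0 ± 1.86 CPM in shE6AP and 63.9 ± 2.41 CPM in wobble, with a log2 fold change of 0.00 (SE 0.04).

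Of 13 genes of membrane, lipid and transport proteins, 5 rose (38.5%), 6 fell (46.2%) and 2 did not pass, with a median of -0.0067. These shares lie near those of all genes averaging 5 CPM or more, 34.5% and 38.1%. ATP8B1, an aminophospholipid flippase of the plasma membrane, had the largest rise of any member, with 110, 112 and 115 CPM in shE6AP, against 45.7, 46.6 and 51.4 CPM in wobble. Its log2 fold change was 1.23 (SE 0.0406). VAPA, which tethers the endoplasmic reticulum to other membranes, had 306, 304 and 296 CPM in shE6AP, against 227, 223 and 225 CPM in wobble (log2 fold change 0.43). NAPG, which takes SNARE complexes apart, had 95.1, 97.0 and 97.3 CPM in shE6AP, against 65.4, 70.1 and 69.2 CPM in wobble (log2 fold change 0.50).

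LPIN2, a phosphatidate phosphatase, had 149, 143 and 148 CPM in shE6AP, against 110, 107 and 112 CPM in wobble, and SLC39A6, a zinc transporter, averaged 296 ± 1.94 CPM in shE6AP and 244 ± 3.19 CPM in wobble. Their log2 fold changes were 0.42 and 0.28.

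The 6 that fell included the lysosomal cholesterol exporter NPC1, at 362 ± 5.47 CPM in shE6AP and 434 ± 1.21 CPM in wobble (log2 fold change -0.26), and OSBPL1A, an oxysterol-binding protein of late endosomes, at 47.2 ± 1.52 CPM in shE6AP and 63.6 ± 2.34 CPM in wobble (log2 fold change -0.43). IMPA2, an inositol monophosphatase, fell the most of the 6, to 61.6 ± 4.83 CPM in shE6AP, against 88.4 ± 3.42 CPM in wobble (log2 fold change -0.52). ABHD3, a phospholipase, had a log2 fold change of -0.47, MPPE1, which remodels the anchors of surface proteins, -0.31, and GALNT1, which starts mucin-type glycosylation, -0.11. PIK3C3, the class III phosphoinositide 3-kinase of autophagy, and DYM, a Golgi protein, did not pass: PIK3C3 averaged 32 ± 1.58 CPM in shE6AP and 30.4 ± 0.928 CPM in wobble, and DYM 17.4 ± 0.596 CPM in shE6AP and 17.4 ± 0.408 CPM in wobble. NPC1 overlaps C18orf8, MPPE1 overlaps GNAL and, among the kinase adaptors, CABLES1 overlaps C18orf45.

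Genes of mitochondrial and redox proteins rose in 4 of 4 members (median 0.483), also a small list, where 34.5% of all genes averaging at least 5 CPM rose. FECH, the last enzyme of haem synthesis, had 69.7, 67.2 and 71.7 CPM in shE6AP, against 47.8, 46.7 and 48.1 CPM in wobble (log2 fold change 0.55, SE 0.0401). TXNL1, a thioredoxin-like protein bound to the proteasome, had 54.6, 52.4 and 52.2 CPM in shE6AP, against 35.7, 35.9 and 37.1 CPM in wobble (log2 fold change 0.55). AFG3L2, a protease of the inner mitochondrial membrane, had 127, 132 and 127 CPM in shE6AP, against 98.6, 94.2 and 96.8 CPM in wobble (log2 fold change 0.42). AFG3L2 overlaps TUBB6 and has a pseudogene row of its own, AFG3L2P1, so its level is uncertain. ME2, a malic enzyme of mitochondria, had 37.9, 36.6 and 38.2 CPM in shE6AP, against 29.1, 30.3 and 31.6 CPM in wobble (log2 fold change 0.31).

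Of 4 ubiquitin ligases, 2 rose, 1 fell and 1 did not pass. MEX3C, an RNA-binding ligase, had 62.9, 63.4 and 62.4 CPM in shE6AP, against 44.1, 43.5 and 44 CPM in wobble (log2 fold change 0.52, SE 0.04). RNF138, a ligase of DNA repair, had 58.6, 56.3 and 59.3 CPM in shE6AP, against 42.6, 40 and 45.4 CPM in wobble (log2 fold change 0.45). RNF125, a ligase that acts on the RNA sensor RIG-I, had 24.9, 26.5 and 26.4 CPM in shE6AP, against 32.9, 35.5 and 36.1 CPM in wobble (log2 fold change -0.43). RNF125 and RNF138 follow each other in the member list and stood on opposite sides. MIB1, which ubiquitinates Notch ligands, had 152, 153 and 165 CPM in shE6AP, against 154, 164 and 172 CPM in wobble. Its libraries overlapped, and its log2 fold change of -0.06 (SE 0.0378) passed with the replicate number as a block, at -0.06.

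Partner subunits encoded elsewhere gave small counts in both directions, from which nothing is read, with 28.6% of all tested genes higher and 30.4% lower. Beside SEH1L, 8 listed genes of the nuclear pore, the outer ring subunits and their neighbour NUP98, gave 3 rises, 3 falls and 2 that did not pass, led by SEC13 at -0.51 and NUP43 at -0.64. Beside HAUS1, 6 tested augmin genes gave 3 rises, 1 fall and 2 that did not pass, led by HAUS4 at -0.68 and HAUS3 at 0.41. Beside ELP2, 5 Elongator genes gave 2 rises and 3 falls, led by ELP3, the catalytic subunit, at 0.55 and C3orf75 at -0.39. Beside PIK3C3, 4 genes of its complexes gave 2 rises, 1 fall and 1 that did not pass, led by BECN1 at -0.37 and UVRAG at 0.35.

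Paralogues, related genes of the same families, were followed on other chromosomes. The 45 tested paralogues gave 17 rises (37.8%), 22 falls (48.9%) and 6 that did not pass, with a median log2 fold change of -0.0974, where 34.5% of all genes of at least 5 CPM rose and 38.1% fell. Of these paralogues, 3 are related to EPB41L3, which has no row, and without them the other 42 gave 16 rises, 20 falls and a median of -0.0734. The 33 members to which these 42 are related gave 23 rises, 6 falls and 4 that did not pass, with a median of 0.279. In 26 of 42 pairs the member had the higher log2 fold change. Of the 29 pairs whose member rose, the paralogue rose in 11, fell in 15 and did not pass in 3. The 42 pairs drew on 33 members, so some members were counted repeatedly. Both lists were drawn up with earlier results known and most members had risen, so nothing is read from the pair counts.

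The widest gaps among paralogues of at least 5 CPM were in 4 pairs of risen members and fallen paralogues. ATP8B2, a flippase related to ATP8B1, averaged 95.1 ± 2.13 CPM in shE6AP and 140 ± 2.35 CPM in wobble, a log2 fold change of -0.56 beside 1.23 for ATP8B1. NAPA, related to NAPG, averaged 23.1 ± 0.695 CPM in shE6AP and 40.4 ± 1.56 CPM in wobble, a log2 fold change of -0.81 beside 0.50. PTPN1, related to PTPN2, averaged 146 ± 3.03 CPM in shE6AP and 230 ± 3.26 CPM in wobble, a log2 fold change of -0.66 beside 0.64. PTPRK, related to PTPRM, averaged 45.1 ± 1.64 CPM in shE6AP and 55 ± 2.95 CPM in wobble, a log2 fold change of -0.29 beside 0.98.

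Other pairs moved alike or the opposite way. SMAD3 on chromosome 15 rose with SMAD2 (0.31 beside 0.51), and VAPB rose with VAPA (0.51 beside 0.43). RIOK2 rose while RIOK3 fell (0.34 beside -0.63), and LYN, SRC and FYN, the kinases related to YES1, fell with it (-0.81, -0.21 and -0.21 beside -0.38). These pairs were picked after their values were seen.

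**Figure D5:**
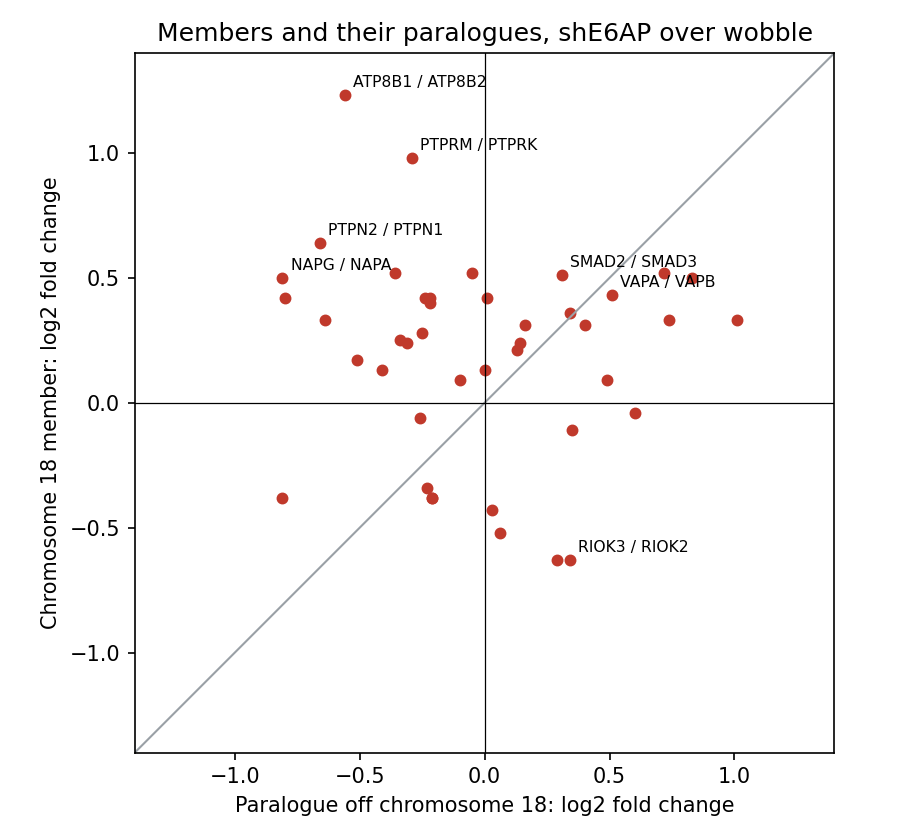
Log2 fold change of shE6AP over wobble for each chromosome 18 member (vertical axis) against its paralogue on another chromosome (horizontal axis), 1 point per pair, 42 pairs, with the line of equal change. The widest gaps, such as ATP8B1 at 1.23 beside ATP8B2 at -0.56, lie in the upper left.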

How the data were processed

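The labels' protocols name TRIzol for extraction and the TruSeq RNA kit, version 2, for the libraries; this kit does not mark strand. The submitters' processing notes list hg19, TopHat2 2.0.13, Bowtie2 and HTSeq. Which annotation was used, and with what strand setting, is not given in the sources used here, so overlapping genes cannot be separated. The authors deposited raw counts of reads for each gene, in whole numbers. Summary and unnamed rows were left out (reads outside genes 14.6% to 16.0% of the table, ambiguous reads 2.05% to 2.21%).

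edgeR 4.0.16 (R 4.3.3) was fitted on all genes kept by filterByExpr, with TMM scaling and group as the only term. The SE is the log2 fold change over the square root of F. The scripts were tested on simulated data. Within a group, libraries were further apart than read sampling allows (chi-square per gene 1.76 to 3.52, and 47.6 to 55.1 between groups). Each library was counted as a replicate, though this spread does not show whether the libraries came from separate cultures.

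Members, role lists, complexes, pathway genes and paralogues were chosen with earlier results of these data known. In each role the 4 members with the smallest p are given by library and the rest by fold change; other chromosome 18 genes are the 5 largest rises and falls at 5 CPM or more, lists give their 2 smallest p, and paralogues the 4 widest gaps. Symbols were placed on chromosomes, and in order, through RefSeq and GENCODE names on GRCh38. A promoter entry was used where its start lay within 1000 bases of the gene's annotated start. Alternatives were scaling by RLE, by upper quartile or by library totals, limma-voom (limma 3.58.1), DESeq2 1.42.0, a replicate block, no filter, a minimum of 1 CPM in 3 libraries, glmTreat against 1.2-fold, and each library left out.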

Additional observations from a re-analysis of the deposited data

How the results depend on the processing

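No call of a member was reversed under any alternative run, and 38 of the 58 members had no change of call. The 41 risen members kept their call under each scaling, filter, tool and the replicate block; glmTreat against 1.2-fold kept 26. With upper-quartile scaling the median log2 fold change was 0.345 for members, 0.451 for the short arm, 0.271 for the long arm, 0.319 for other chromosome 18 genes, -0.069 for paralogues and 0.328 for all of chromosome 18, while that of all genes was 0.0367. With library totals the last 3 lists gave 0.301, -0.0873 and 0.31. Without a filter the short arm gave 0.4, the long arm 0.22, other chromosome 18 genes 0.263, paralogues -0.12 and chromosome 18 0.268, and with 1 CPM in 3 libraries paralogues gave -0.13. The cause of these shifts was not tested. glmTreat called 2553 genes higher and 3084 lower in all, 9 long-arm members higher, 61 other chromosome 18 genes higher and 7 lower, and 11 paralogues higher and 9 lower. With 1 library left out, 5111 to 5307 genes were higher and 5581 to 5782 lower; members gave 38 to 41 higher, 10 to 11 lower and a median of 0.283 to 0.314. The short arm gave 17 to 18 higher and 0.407 to 0.435, the long arm 21 to 23 higher, 7 to 8 lower and 0.191 to 0.256, other chromosome 18 genes 91 to 96 higher, 15 to 18 lower and 0.262 to 0.311, and paralogues 14 to 17 higher, 21 to 22 lower and -0.125 to -0.0842. Chromosome 18 kept the highest median of 23, at 0.289 to 0.311, and UBE3A ran from -1.97 to -1.92. Whether the replicate numbers pair the libraries was not settled. Same-numbered deviations correlated at 0.0438, 0.0166 and 0.0372, each the highest for its number, and the others at -0.0325 to -0.00567. These values are small and a hint only. With the block 5849 genes were higher and 6130 lower, against 5564 and 5903 without it. The chromosome 18 median was then 0.291, and MIB1 passed. GATA6, the member with the fewest reads, had the widest SE of the members (0.101), and the relation of reads to SE was not tested.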

Other observations

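Several chromosome 18 genes outside the list, picked after their values were seen, belong to families of epithelial cells. SERPINB5, the serpin known as maspin, had 3.79, 4.36 and 3.88 CPM in shE6AP, against 0.264, 0.484 and 0.627 CPM in wobble, and SERPINB7 had 5.72, 4.82 and 5.05 CPM in shE6AP, against 0.727, 0.381 and 0.664 CPM in wobble. Their log2 fold changes were 3.13 and 3.14, while that of SERPINB8, in the same gene cluster, was 0.30. Desmosomal cadherins did not move together: DSG2 rose (337 ± 6.45 CPM in shE6AP and 290 ± 6.71 CPM in wobble), DSC3 fell (22.3 ± 1.54 CPM in shE6AP and 25.9 ± 0.482 CPM in wobble), and DSC2 did not pass (log2 fold change 0.06). PMAIP1, which encodes the apoptosis protein NOXA, averaged 63.0 ± 2.18 CPM in shE6AP and 31.3 ± 2.44 CPM in wobble. TYMS, the thymidylate synthase gene near the short-arm telomere, averaged 224 ± 5.16 CPM in shE6AP and 147 ± 4.55 CPM in wobble. MC5R, a melanocortin receptor, had 121 reads over the shE6AP libraries and 0 over the wobble libraries, at least 47-fold higher against a floor of 3 reads over the group; with it at that bound the median of other chromosome 18 genes was again 0.291.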
